A study of Mus musculus with 9 samples.

Results

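*Dazl*, *Mael*, *Mov10l1* and *Stk31* are 4 germline genes that were chosen by symbol from the 15074 genes of the expression table. They were chosen with earlier results of these data known, and all 4 had a value in all 9 RNA-seq libraries. The libraries come from 3 lines of mouse ESCs. WT ESCs are the embryonic stem cell line J1 with intact *Dnmt1*. 1KO ESCs are *Dnmt1*-/- cells, and *Dnmt1* encodes the maintenance DNA methyltransferase. 1KO+1CI ESCs are 1KO cells that carry a transgene for catalytically inactive DNMT1 driven by the ubiquitous CAG promoter with a zeocin resistance gene behind an IRES, so both mutant lines lack the endogenous gene's active enzyme. Each line was sampled at days 0, 2 and 4 of differentiation. Day 0 cells were grown with LIF on mitomycin C-treated embryonic fibroblast feeders, and for the later days the feeders were removed and the cells formed embryoid bodies and then an adherent culture without LIF. Each of the 9 conditions has 1 library. The paper established 2 clones of 1KO+1CI, and the 3 columns of this line carry the same line name, presumably of 1 clone. A difference between lines therefore cannot be told apart from a difference between clones or cultures.

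The 4 genes encode germ cell proteins that bind RNA, act in the piRNA pathway or are found with its proteins. DAZL binds the 3' ends of germ cell mRNAs and promotes their translation and stability, and it is needed for germ cells to become competent for gametogenesis. The piRNA pathway silences transposons in the male germline: precursor RNAs are cut into small RNAs that guide PIWI proteins to transposon transcripts and, in fetal male germ cells, direct DNA methylation to transposon promoters. MOV10L1 is the RNA helicase that feeds precursors into this pathway, MAEL is an HMG-domain protein of the nuage that acts in transposon silencing and piRNA production, and STK31 is a Tudor-domain protein of the germline that is found with piRNA pathway proteins. Many germline genes of this kind have CpG-rich promoters that are methylated in somatic cells and become active when DNA methylation is lost.

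The promoter sequences are shown because the lines differ in a DNA methyltransferase that acts on CpG sites. On GRCm38 (GENCODE M21), *Dazl* lies on the minus strand at chr17:50279395-50293636, *Mael* on the minus strand at chr1:166201201-166238747, *Mov10l1* on the plus strand at chr15:88982909-89055152 and *Stk31* on the plus strand at chr6:49395604-49469501. No other annotated gene overlaps their exons, and *Gm23737* and *Gm17060* lie within the spans of *Mov10l1* and *Stk31*. The 250 bases upstream of each RefSeq start site (build GRCm38.p6) are chr17:50293621-50293870 for *Dazl*, chr1:166238745-166238994 for *Mael*, chr15:88982744-88982993 for *Mov10l1* and chr6:49395354-49395603 for *Stk31*. The outermost GENCODE starts of *Dazl*, *Mael* and *Mov10l1* lie within these windows, and for *Dazl* the nearest GENCODE transcript start that is matched to RefSeq is 16 bases from the start site used here. The sequences are given 5' to 3' on the strand of the gene with CpG dinucleotides in capitals; the last capital C of *Dazl* and *Mael* belongs to a CpG that is completed by the first base after the window.
Dazl: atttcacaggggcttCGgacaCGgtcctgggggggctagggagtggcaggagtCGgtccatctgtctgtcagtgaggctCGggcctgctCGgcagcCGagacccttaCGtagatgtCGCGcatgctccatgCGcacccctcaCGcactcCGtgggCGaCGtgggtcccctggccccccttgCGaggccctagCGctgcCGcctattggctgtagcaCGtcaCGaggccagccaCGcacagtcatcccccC
Mael: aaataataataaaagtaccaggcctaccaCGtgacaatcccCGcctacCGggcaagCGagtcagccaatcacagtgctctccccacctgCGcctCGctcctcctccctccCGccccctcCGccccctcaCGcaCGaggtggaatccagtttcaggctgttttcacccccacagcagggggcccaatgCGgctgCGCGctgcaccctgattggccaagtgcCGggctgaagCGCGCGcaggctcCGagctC
Mov10l1: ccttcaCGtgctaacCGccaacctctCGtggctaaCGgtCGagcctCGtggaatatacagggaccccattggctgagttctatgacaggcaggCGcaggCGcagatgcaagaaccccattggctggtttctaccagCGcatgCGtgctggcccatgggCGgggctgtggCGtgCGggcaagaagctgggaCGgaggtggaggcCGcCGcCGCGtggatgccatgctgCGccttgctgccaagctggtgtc
Stk31: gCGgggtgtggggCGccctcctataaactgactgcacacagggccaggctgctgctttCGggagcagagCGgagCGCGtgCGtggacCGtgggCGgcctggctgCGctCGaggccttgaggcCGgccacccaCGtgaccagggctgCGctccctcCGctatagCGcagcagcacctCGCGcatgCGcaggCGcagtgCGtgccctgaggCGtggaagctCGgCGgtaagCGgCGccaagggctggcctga

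In the 300 bases made of these 250 and the 50 that follow, *Dazl* and *Stk31* each held 28 CpGs, *Mael* 24 and *Mov10l1* 20. The median over 32851 RefSeq promoters of the same length was 7, and 14.2% of them held at least 28, 20.0% at least 24 and 26.5% at least 20. All 4 promoters were thus on the CpG-rich side of the distribution. DNA methylation at these promoters was not examined here in any line. The palindrome CACGTG, the E-box bound by MAX dimers such as MGA-MAX, was found once in *Mael* at base -223, once in *Mov10l1* at base -246 and once in *Stk31* at base -120, with the start site as base 1. It was absent from the *Dazl* window and was present in 7.15% of all promoters. GCGGGA, searched on both strands as the core letters of E2F6 sites, was found only in *Mael* among the 4 windows, at bases 12 and -143, and in 20% of all promoters. The 2 motifs do not overlap here. These are matches of letters and not measured binding sites.

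The labels were checked against *Dnmt1* itself. FPKM counts reads relative to transcript length and library size. The WT libraries of days 0, 2 and 4 had 74.0, 80.4 and 48.5 FPKM of *Dnmt1*. The 1KO libraries had 13.7, 17.4 and 12.3 FPKM and the 1KO+1CI libraries 315, 129 and 158 FPKM. *Dnmt1* was thus below the WT range in all 1KO libraries and higher in all 1KO+1CI libraries. Depth recovered from the steps of the FPKM values was between 20200000 and 28000000 reads per library. The summed level of 7 ESC markers was 1420 to 1720 FPKM at day 0 and 898 to 1190 FPKM at day 4. *Pou5f1* made up most of the day 4 sum, at 1008, 745 and 650 FPKM in WT, 1KO and 1KO+1CI. The median day 4 minus day 0 difference of the 7 in log2(FPKM + 1) was -3.03, -2.92 and -3.04 in these lines. The sum of 5 markers of epiblast-like cells (EpiLCs) was 122 to 143 FPKM at day 0 and 396 to 589 FPKM at day 4. At day 2 the WT, 1KO and 1KO+1CI libraries had ESC sums of 1730, 1240 and 1050 FPKM and EpiLC sums of 173, 357 and 379 FPKM. Both mutant lines thus had a lower ESC sum and a higher EpiLC sum than WT at day 2. All 5 EpiLC markers were above WT in both mutant lines. Of the 7 ESC markers only *Klf4* was above WT, at 2.45, 4.67 and 5.57 FPKM in WT, 1KO and 1KO+1CI. The part of these markers in the day 2 differences of the 4 genes was not tested.

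At days 0 and 2 all 4 genes were at low levels in WT ESCs, between 1.38 and 3.52 FPKM, and all 4 were higher in both mutant lines. At day 4 the genes separated: *Dazl* was at about 2 FPKM in all 3 lines, *Mael* was highest in WT, *Mov10l1* was still higher in both mutant lines, and *Stk31* was higher only in 1KO. The sizes and counting errors of these differences are given gene by gene. Since bulk RNA was measured, more cells with a transcript and more transcripts per cell cannot be told apart.

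**Figure D1:**
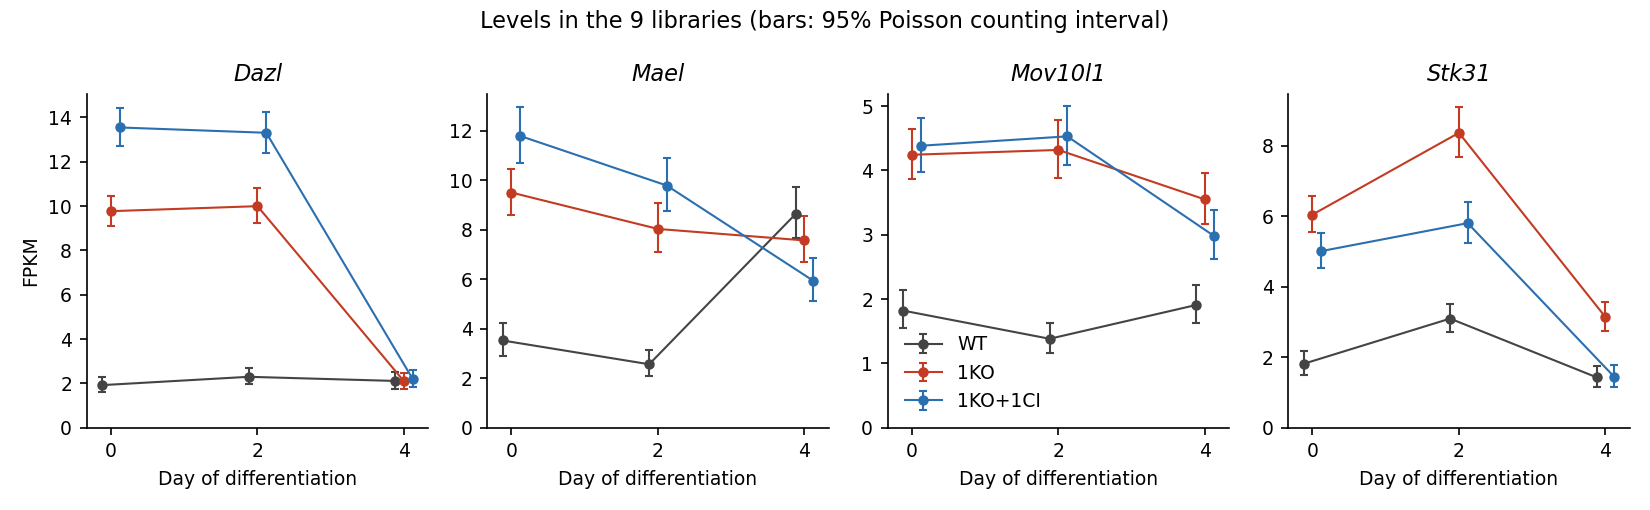
FPKM (y axis, linear from 0) of each of the 4 genes by day of differentiation (x axis) in WT, 1KO and 1KO+1CI ESCs; each point is 1 library and bars are 95% Poisson counting intervals. At day 4 the 3 lines meet near 2 FPKM for *Dazl*, WT is highest for *Mael* at 8.63 FPKM, and both mutant lines stay above WT for *Mov10l1*.

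*Dazl*, the translational regulator, had the largest difference between lines of the 4 genes at days 0 and 2. The WT, 1KO and 1KO+1CI libraries of day 0 had 1.93, 9.77 and 13.6 FPKM. Those of day 2 had 2.30, 10.0 and 13.3 FPKM, and those of day 4 had 2.11, 2.10 and 2.20 FPKM. The mutant lines thus had high values for 2 time points and the WT value at the last, while the 3 WT libraries stayed close to each other. The ratio of 1KO to WT was 5.07 at day 0 (95% binomial counting interval 4.16 to 6.18) and 4.35 at day 2 (3.65 to 5.18). At day 4 it was 0.993 (0.777 to 1.27). 1KO+1CI was above 1KO at day 0 by a ratio of 1.39 (1.26 to 1.52) and at day 2 by 1.33 (1.20 to 1.48). Within 1KO, day 4 over day 0 was 0.215 (0.178 to 0.257), and within 1KO+1CI it was 0.162 (0.134 to 0.195). Within WT the same ratio was 1.10 (0.845 to 1.41), an interval that includes 1. The *Dazl* intervals are approximate, because its FPKM values did not fall on whole reads of a single transcript length and reads were computed over its longest annotated transcript of 2976 bases.

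*Mael*, the nuage protein gene, was the only 1 of the 4 genes for which a mutant line was below WT by more than counting error. The WT, 1KO and 1KO+1CI libraries of day 0 had 3.52, 9.50 and 11.8 FPKM (112, 409 and 433 reads). Those of day 2 had 2.57, 8.03 and 9.78 FPKM (96, 259 and 319 reads). Those of day 4 had 8.63, 7.56 and 5.94 FPKM (279, 263 and 184 reads), so that WT was highest and 1KO+1CI lowest. The ratio of 1KO to WT was 2.69 (2.18 to 3.35) at day 0 and 3.13 (2.46 to 4.00) at day 2. At day 4 it was 0.876 (0.738 to 1.04), which includes 1. The ratio of 1KO+1CI to WT was 3.34 (2.71 to 4.15) and 3.81 (3.02 to 4.84) for days 0 and 2, but 0.688 (0.568 to 0.831) for day 4. Both sides of the comparison moved: within WT day 4 over day 2 was 3.37 (2.66 to 4.29), and within 1KO+1CI it was 0.607 (0.504 to 0.730).

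*Mov10l1*, the piRNA helicase gene, had the lowest level of the 4 genes in both mutant lines at days 0 and 2, and it was the only 1 whose WT libraries were all below all libraries of both mutant lines. In WT it was at 1.82, 1.38 and 1.91 FPKM at days 0, 2 and 4 (152, 136 and 162 reads). In 1KO it was at 4.24, 4.32 and 3.55 FPKM (480, 366 and 324 reads). In 1KO+1CI it was at 4.38, 4.53 and 2.98 FPKM (423, 388 and 243 reads). The lowest mutant value was 2.98 FPKM and the highest WT value 1.91 FPKM. Of all genes 4.18% were separated in this way from WT in 1KO and 5.29% in 1KO+1CI. The ratio of 1KO to WT on the successive days was 2.33 (1.94 to 2.82), 3.12 (2.56 to 3.83) and 1.86 (1.53 to 2.26). 1KO+1CI and 1KO were not told apart by counting error at day 0, with a ratio of 1.03 (0.905 to 1.18), or at day 2, with a ratio of 1.05 (0.907 to 1.21). At day 4 the ratio was 0.841 (0.7095 to 0.997), an interval just below 1. *Mov10*, the paralogue of *Mov10l1* that is expressed in somatic cells, was at a higher level and did not share this pattern: in WT it was at 68.2, 42.6 and 7.20 FPKM at days 0, 2 and 4, and in 1KO at 54.1, 24.5 and 14.7 FPKM.

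*Stk31*, the Tudor-domain gene, was the only 1 of the 4 genes with a ratio of 1KO+1CI to 1KO under 1 at every day. In WT it was at 1.82, 3.10 and 1.43 FPKM at days 0, 2 and 4 (121, 243 and 97 reads). In 1KO it was at 6.05, 8.37 and 3.14 FPKM (546, 566 and 229 reads), and in 1KO+1CI at 5.01, 5.80 and 1.45 FPKM (386, 397 and 94 reads). Each line had its highest value at day 2 and its lowest at day 4. The ratio of 1KO to WT was 3.33 (2.73 to 4.09), 2.70 (2.32 to 3.15) and 2.19 (1.72 to 2.81) at the 3 days. The ratio of 1KO+1CI to 1KO was 0.829 (0.726 to 0.946), 0.694 (0.609 to 0.790) and 0.460 (0.358 to 0.588). At day 4 1KO+1CI stood at the WT level, with a ratio of 1.01 (0.753 to 1.36).

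**Figure D2:**
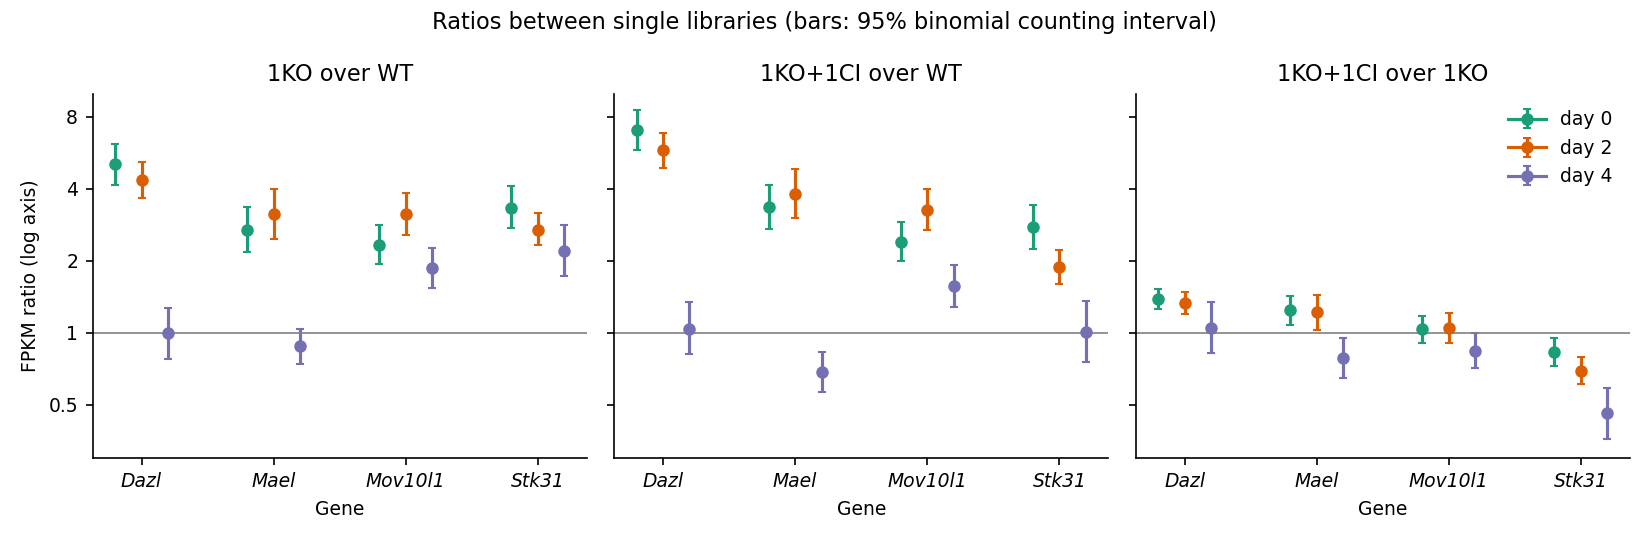
FPKM ratios between single libraries (y axis, log scale) for each gene at days 0, 2 and 4, in 3 panels for 1KO over WT, 1KO+1CI over WT and 1KO+1CI over 1KO; bars are 95% binomial counting intervals and the grey line marks a ratio of 1. *Dazl* falls from 5.07 at day 0 to 0.993 at day 4 in the first panel, and *Stk31* is below 1 at all 3 days in the last.

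The differences between lines were averaged over the 3 days by a fit of line and day to log2(FPKM + 1) with limma, in which the departures of the 9 libraries from additive effects are the only spread. The p-values therefore speak of these lines and not of independent cultures, and a gene whose line difference changes with the day has a wide error. For 1KO against WT, 2 of the 4 genes were higher at an adjusted p under 0.05, against 0.710% of all 15074 genes (107 genes). None was lower, against 1.15%. Because the 4 genes were chosen with earlier results of these data known, these counts are descriptions. *Stk31* rose by 1.09 on the log2 scale (SE 0.20, adjusted p = 0.043) and *Mov10l1* by 0.90 (SE 0.17, adjusted p = 0.045), and both adjusted p-values are close to the threshold. *Mov10l1* and *Stk31* were also the genes whose lowest 1KO library was above the highest WT library, and for *Stk31* the margin was 3.14 against 3.10 FPKM. *Dazl* differed by 1.20 (SE 0.41, adjusted p = 0.22) and *Mael* by 0.79 (SE 0.37, adjusted p = 0.36), and neither passed. Leaving out day 4 gave *Dazl* a difference of 1.81 (adjusted p = 0.043) and *Mael* one of 1.28 (adjusted p = 0.074), while *Stk31* and *Mov10l1* no longer passed in that smaller fit (adjusted p = 0.081 and 0.099). Without day 0 or day 2 none of the 4 passed, with adjusted p-values of 0.18 and 0.38 for *Stk31* and 0.22 and 0.39 for *Mov10l1*. The change of the line difference with the day was not tested.

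For 1KO+1CI against WT, 1 of the 4 genes was higher, against 1.80% of all genes, and none was lower, against 2.14%. It was *Mov10l1*, which rose by 0.87 on the log2 scale (SE 0.17, adjusted p = 0.034). *Dazl* differed by 1.49 (SE 0.41, adjusted p = 0.088), *Mael* by 0.87 (SE 0.37, adjusted p = 0.23) and *Stk31* by 0.61 (SE 0.20, adjusted p = 0.14). Without day 4 *Dazl* rose by 2.21 (adjusted p = 0.015) and *Mael* by 1.55 (adjusted p = 0.035), and *Mov10l1* was at 1.07 (adjusted p = 0.067). It was at 0.83 without day 0 (adjusted p = 0.17) and at 0.69 without day 2 (adjusted p = 0.27). This comparison shares the WT libraries with the one above, so the 2 are not independent.

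The comparison of 1KO+1CI with 1KO sets the transgenic line beside its parent line. An effect of the inactive protein cannot be told apart from a difference between clones or cultures. In the limma fit 0 of the 4 genes passed. Over all genes *Dnmt1*, the gene that the transgene carries, was the only gene called higher (0.00663%). None was called lower, and 564 genes (3.74%) were at an unadjusted p under 0.05. The difference was 0.29 for *Dazl* (95% confidence interval -0.66 to 1.23), 0.079 for *Mael* (-0.77 to 0.92) and -0.032 for *Mov10l1* (-0.42 to 0.36), whose sign turns with common-sum scaling (0.00032). For *Stk31* it was -0.48 (-0.95 to -0.013; unadjusted p = 0.045, adjusted p = 1). These intervals do not show that the 2 lines are alike, and for *Dazl* and *Mael* they include differences of about 1 on the log2 scale.

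At single days the number of the 4 genes higher in 1KO than WT by at least 1 on the log2(FPKM + 1) scale was 3, 4 and 0 on days 0, 2 and 4. The shares of all genes past the same limit were 2.24%, 1.60% and 1.67%. For 1KO+1CI against WT the number was 3, 3 and 0, and the shares were 2.54%, 2.28% and 3.01%. The gene below the limit in 1KO at day 0 was *Mov10l1*, at 0.89. At day 4 the differences were -0.0065 for *Dazl*, -0.17 for *Mael*, 0.645 for *Mov10l1* and 0.77 for *Stk31*. The FPKM ratio of *Stk31* was still above 2 at that day, since the added 1 shrinks differences of genes at low levels.

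Time courses were compared within the same fit, averaged over lines. None of the 4 genes was called between days 0 and 2, where 7.34% of all genes were called higher and 8.11% lower. Between days 2 and 4, *Stk31* fell by 1.14 on the log2 scale (SE 0.20, adjusted p = 0.0085) and *Dazl* fell by 1.36 (SE 0.41, adjusted p = 0.047), where 11.7% of all genes were called lower and 11.2% higher. Between days 0 and 4, *Stk31* fell by 0.76 (SE 0.20, adjusted p = 0.032) and *Dazl* was at -1.30 (SE 0.41, adjusted p = 0.054), where 12.3% of all genes were called lower and 11.3% higher. *Mael* was at 0.24 between days 2 and 4 (SE 0.37, adjusted p = 0.66) and *Mov10l1* at -0.14 (SE 0.17, adjusted p = 0.59). For *Dazl* this average joins a WT line with no difference to mutant lines with differences of -1.80 in 1KO and -2.19 in 1KO+1CI between days 0 and 4. Without the WT line the day 4 minus day 0 difference of *Dazl* was -1.99 (adjusted p = 0.000296) and that of *Mael* -0.59 (adjusted p = 0.044), both from 6 libraries. Without 1KO or without 1KO+1CI none of the calls of *Dazl* and *Stk31* held, with adjusted p-values of 0.30 and 0.23 for *Dazl* between days 2 and 4, 0.12 and 0.058 for *Stk31* between days 2 and 4, and 0.21 and 0.25 for *Stk31* between days 0 and 4.

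The marker levels of other cells were measured beside these results. For WT, 1KO and 1KO+1CI the summed level of 6 primordial germ cell markers was 95.8, 161 and 168 FPKM at day 0. It was 37.5, 36.5 and 38.1 FPKM at day 2, and 7.86, 17.1 and 17.5 FPKM at day 4. Gene by gene, 1KO was above WT for 5, 2 and 5 of the 6 on days 0, 2 and 4. 1KO+1CI was above WT for 4, 2 and 6 on these days. *Dppa3* made up most of the day 0 difference, at 35.75, 89.71 and 90.27 FPKM in WT, 1KO and 1KO+1CI. On the log2 scale *Prdm1* was below WT at day 0 in 1KO (-0.59) and 1KO+1CI (-0.56), and *Nanos3* in 1KO+1CI (-1.12). At day 2, 1KO minus WT was 1.03 for *Dppa3* and 0.72 for *Kit*. It was -0.43 for *Prdm1*, -0.52 for *Prdm14*, -1.25 for *Tfap2c* and -1.42 for *Nanos3*. The part of these markers in the differences of the 4 genes was not tested. The summed level of the 6 measured feeder fibroblast markers was 89.3, 173 and 196 FPKM at day 0. At the later days the sum was between 11.1 and 25.5 FPKM, and it was lowest in WT at each day. By member, 1KO was above WT for 6, 6 and 4 of the 6 on days 0, 2 and 4, and 1KO+1CI for 6, 6 and 5. The part of the feeder markers in the day 0 differences was not tested. The sum of 5 primitive endoderm markers was 2.29, 3.56 and 4.1 FPKM at day 0, 1.77, 2.6 and 6.06 FPKM at day 2 and 2.87, 5.12 and 8.48 FPKM at day 4 for WT, 1KO and 1KO+1CI. The sum was lowest in WT and highest in 1KO+1CI at each day. Member by member, 1KO was above WT for 4, 3 and 4 of the 5 on days 0, 2 and 4. 1KO+1CI was above WT for all 5 on each day. The part of these markers in the line differences was not tested. The sum of 5 measured markers of 2-cell-like cells was between 0.784 and 17.1 FPKM, with the lowest values of the latter at day 2.

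Of the other piRNA pathway genes, *Fkbp6*, *Gpat2* and *Gtsf1* were called higher in 1KO than WT. Of 26 listed genes 23 were measured, 3 were called higher and 0 lower, against 0.710% and 1.15% of all genes. The difference was above 0 for 17 of the 23, and the median difference was 0.15 against 0.0047 over all genes. *Fkbp6*, a cochaperone of piRNA amplification, rose by 3.08 on the log2 scale (SE 0.19, adjusted p = 0.0010). *Gpat2*, a mitochondrial acyltransferase family member needed for piRNA production, rose by 3.07 (SE 0.13, adjusted p = 7.3e-05), and *Gtsf1*, a zinc finger partner of PIWI proteins, by 1.51 (SE 0.17, adjusted p = 0.013). *Gpat2* was still at 12.5 FPKM in 1KO at day 4, against 0.455 in WT. *Dazl* was at 2.10 FPKM in 1KO at that day, against 2.115 in WT, and *Mael* at 7.56, against 8.63 in WT. In 1KO+1CI against WT 5 were called higher and 1 lower, against 1.80% and 2.14% of all genes. *Rnf17*, a Tudor-domain gene, rose by 1.39 (adjusted p = 0.042), and *Piwil4*, the nuclear PIWI protein gene, by 0.52 (adjusted p = 0.039), while *Tdrd12* fell by 1.01 (adjusted p = 0.019); *Piwil4* and *Tdrd12* are named after their values were seen. With a day omitted *Piwil4* and *Tdrd12* passed in none of the 3 smaller fits, with adjusted p-values of 0.10 to 0.23 and of 0.089 to 0.14, and *Rnf17* passed only without day 4 (adjusted p = 0.22 without day 0 and 0.275 without day 2). Between 1KO+1CI and 1KO none of the 23 was called by limma. *Ddx4*, the Vasa helicase gene and a classical germ cell gene, was not called in 1KO against WT (0.15, adjusted p = 0.76) and was at 7.12 FPKM in WT and 9.26 in 1KO at day 0.

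No measured germ cell RNA-binding gene of the list, which leaves out *Dazl*, was called higher in 1KO. Of 21 listed genes 18 were measured, 0 were called higher and 1 lower in 1KO than WT, against 0.710% and 1.15% of all genes, and the median difference was -0.0019 against 0.0047 over all genes. The gene called lower was *Adad2*, which fell by 1.43 (SE 0.23, adjusted p = 0.030). *Rbm44* and *Rbmxl2* had the largest positive differences, at 0.45 (adjusted p = 0.33) and 0.42 (adjusted p = 0.21), and *Patl2* was at -0.67 (adjusted p = 0.31). *Boll*, the closest relative of *Dazl* in the list, was at 0.26 to 0.98 FPKM in the 9 libraries and was not called (0.012, adjusted p = 0.98).

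A list of 16 germline genes associated with DNA methylation, written from general knowledge, had 15 measured members. Not all were silent in WT, where *Sycp3* was at 12.8 FPKM at day 0. In 1KO against WT 3 were called higher and 0 lower, against 0.710% and 1.15% of all genes, with a median difference of 0.77 against 0.0047 over all genes. *Tuba3a*, a testis tubulin gene, rose by 2.16 (SE 0.16, adjusted p = 0.0023). *Slc25a31*, an ADP/ATP carrier gene of the germline, rose by 1.65 (SE 0.20, adjusted p = 0.015), and *Tex101*, a germ cell surface protein gene, by 1.27 (SE 0.18, adjusted p = 0.021). The number of these 15 genes higher by at least 1 was 8, 7 and 2 on days 0, 2 and 4, against 2.24%, 1.60% and 1.67% of all genes. *Sycp3*, named after its value was seen, was lower by more than 1 at day 0, at -1.605. In 1KO+1CI against WT 6 of the 15 were called higher and 0 lower, against 1.80% and 2.14% of all genes. Of 20 listed genes for repression of germline genes, which include DNA methyltransferases and components of the PRC1 variant that contains MGA and E2F6, *Dnmt1* was the only gene called in 1KO against WT. *Dnmt3l* was at 1.07 (SE 0.37, adjusted p = 0.23) and *Dnmt3b* at 0.42 (adjusted p = 0.53), and *Tet2* was at -0.31 (adjusted p = 0.64). *Mga* was at -0.077 (adjusted p = 0.82), *Max* at 0.14 (adjusted p = 0.57) and *E2f6* at 0.030 (adjusted p = 0.94). The members of these lists were written with results of these data known, and their counts are descriptions. When a day was omitted, *Gpat2* passed in each of the 3 smaller fits, and 18 of the 24 calls of the 8 genes named as called in 1KO against WT did not pass.

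**Figure D3:**
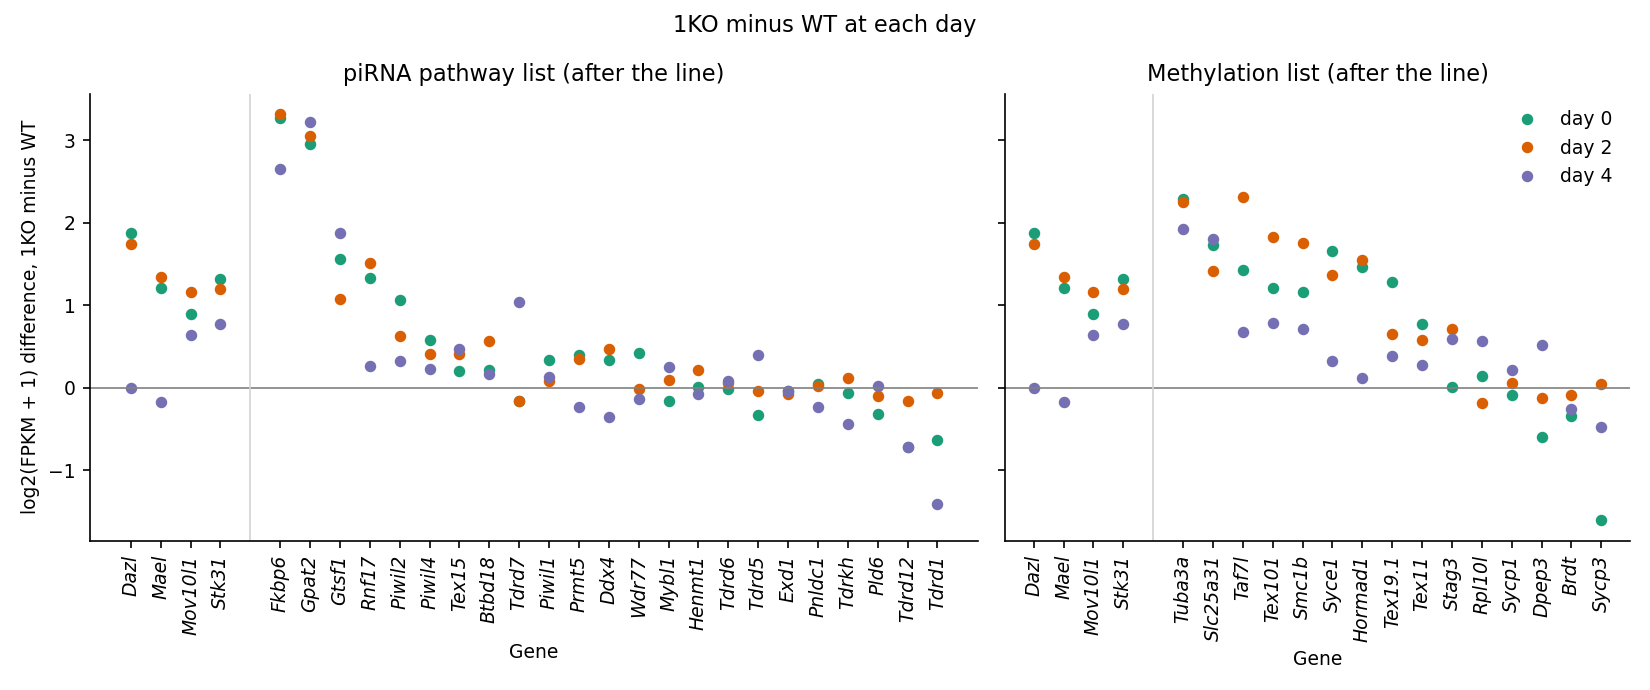
Differences in log2(FPKM + 1) of 1KO minus WT (y axis) at days 0, 2 and 4 for the 4 genes, left of the vertical line, and for the genes of the piRNA pathway list and of the methylation list, right of it; each point compares 1 library with 1. *Fkbp6*, *Gpat2*, *Gtsf1*, *Tuba3a* and *Slc25a31* are above 1 at all 3 days, whereas *Rnf17*, *Syce1* and *Hormad1* are above 1 at days 0 and 2 and much closer to 0 at day 4, as *Dazl* is.

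The genes most like each of the 4 were found by the Pearson correlation of log2(FPKM + 1) over the 9 libraries, as a description. For *Dazl* they were *Rnf17* (r = 0.991), *Syce1* (r = 0.974), a gene of the synaptonemal complex, and *Icosl* (r = 0.968), the ligand of the costimulatory receptor ICOS. *Rnf17* was at 6.67, 18.3 and 29.3 FPKM in WT, 1KO and 1KO+1CI at day 0 and at 5.08, 6.31 and 6.73 FPKM at day 4. For *Mov10l1* they were *Xlr3a* (r = 0.975), *Tuba3a* (r = 0.968) and *Plxna2* (r = 0.965). *Xlr3a* was nearly absent from WT, at 0.530 FPKM at day 0 and 0.174 at day 4, and was at 18.1 and 5.98 FPKM in 1KO at these days. It belongs to a family of near-identical copies, so its reads may be shared with them.

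For *Mael* the closest genes were *Pbdc1* (r = 0.971), *Fam185a* (r = 0.966) and *Psmd1* (r = 0.965), a proteasome subunit gene. These differ little in size between libraries: *Psmd1* was at 95.1 to 130 FPKM in all 9, whereas *Mael* was at 2.57 to 11.8 FPKM. For *Stk31* they were *1700001L05Rik* (r = 0.961), *Arhgap30* (r = 0.957) and *Angptl4* (r = 0.955). Between the 4 genes themselves r was between 0.463, for *Mael* and *Stk31*, and 0.869, for *Dazl* and *Stk31*. The 9 libraries share lines and days, and the most similar genes were selected from the whole table.

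**Figure D4:**
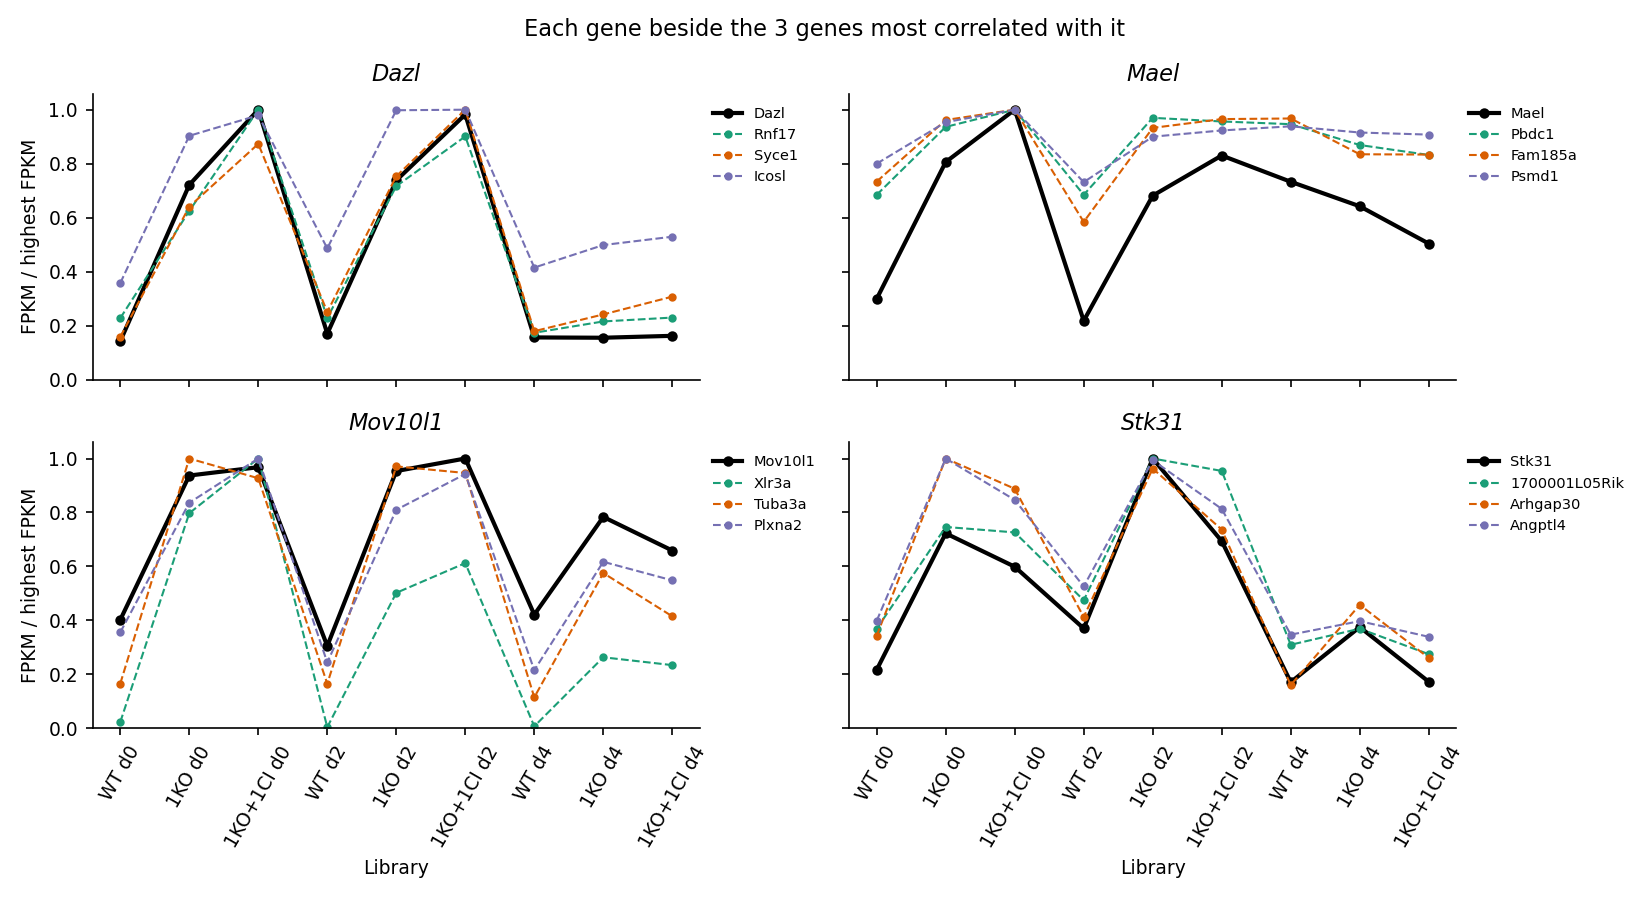
FPKM divided by the highest FPKM of the same gene (y axis) in the 9 libraries (x axis, ordered by day and line) for each of the 4 genes (black) and the 3 genes most correlated with it (dashed). *Rnf17* and *Syce1* follow *Dazl* closely, with low values in WT and at day 4, while the genes beside *Mael* vary over a much smaller range.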

How the data were processed

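Poly(A) RNA of 9 mouse ESC libraries, 1 per line and day, had been sequenced. Values were the FPKM deposited by the authors, whose pipeline was Trim Galore, HISAT2 against mm10, SAMtools and HOMER. The sources used here do not give versions, annotation release, strand setting or the treatment of multiply aligned reads. The table of repeats was not used. Of 15095 entries, 21 name no gene (at most 0.117% of the FPKM of a library) and were left out, and 15074 genes were tested. No value was 0.

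Differences are of log2(FPKM + 1). Line and day were fitted additively to the 9 libraries with limma 3.58.1 (R 4.3.3; empirical Bayes with intensity trend, 4 residual degrees of freedom, two-sided, Benjamini-Hochberg over all genes, threshold 0.05). Single libraries were compared without a test. Reads were recovered from the FPKM steps of *Mael*, *Mov10l1* and *Stk31* and approximated for *Dazl*. Whether a step is a read or a pair is unknown, and intervals (95%, Clopper-Pearson for ratios, Poisson for levels) cover counting error only. The fit and the depth recovery were tested on simulated data. Alternatives were pseudocounts 0.1 and 0.01, common-sum and median-ratio scaling, a minimum of 1 FPKM in any library, no intensity trend, and omission of each day or line.

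The genes and lists were chosen with earlier results of these data known. Named were the 4 genes, *Dnmt1*, *Mov10*, up to 4 called genes in each direction per list (with fewer than 2 called, the 2 highest and the 2 lowest differences), and the 3 most correlated genes with at least 1 FPKM in any library. *Ddx4*, *Boll*, *Mga*, *Max*, *E2f6*, *Hormad1*, *Piwil4*, *Tdrd12* and *Sycp3* were added for their roles or after their values were seen. So were *Pou5f1*, *Klf4* and the 6 primordial germ cell markers. Sequences are from RefSeq (GRCm38.p6), and all 4 symbols matched.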

Additional observations from a re-analysis of the deposited data

Results flagged for a closer look

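*Mael* changed sign between days in comparisons of 1KO+1CI ESCs. The log2(FPKM + 1) difference of 1KO+1CI minus WT was 1.5, 1.60 and -0.47 on days 0, 2 and 4. That of 1KO+1CI minus 1KO was 0.28, 0.26 and -0.30 on the same days. Its time course also went opposite ways in the lines: for WT, 1KO and 1KO+1CI day 4 minus day 0 was 1.09, -0.29 and -0.88, and for WT and 1KO+1CI day 4 minus day 2 was 1.43 and -0.64. For *Mov10l1*, day 4 minus day 2 was 0.29, -0.23 and -0.47 for WT, 1KO and 1KO+1CI. Each of these pairs was taken because the counting intervals of the values lie on opposite sides of no difference. With 1 library per condition, the differences between days or lines in these values were not tested.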

How the results depend on the processing

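The day term of the fit compares the lines within days. Beyond it, no paired analysis was possible because each condition has 1 library and the labels carry no replicate numbers. Of 216 values of the 4 genes under the alternatives of the line and day fit, 182 kept their direction and their side of the threshold, 9 passed it newly, 16 lost it and 9 changed sign. Omission of a day or line leaves 2 residual degrees of freedom. Over the omitted days, 1KO minus WT was 0.865 to 1.81 for *Dazl*, 0.52 to 1.28 for *Mael*, 0.77 to 1.03 for *Mov10l1* and 0.98 to 1.26 for *Stk31*, 1KO+1CI minus WT was 1.08 to 2.21 for *Dazl*, 0.51 to 1.55 for *Mael*, 0.69 to 1.07 for *Mov10l1* and 0.37 to 0.91 for *Stk31*, and 1KO+1CI minus 1KO was -0.024 to 0.27 for *Mael* and -0.076 to 0.047 for *Mov10l1*. Over the omitted lines, day 4 minus day 0 was -1.99 to -0.85 for *Dazl*, -0.59 to 0.40 for *Mael* and -1.03 to -0.49 for *Stk31*, day 4 minus day 2 was -1.995 to -0.96 for *Dazl*, -0.36 to 0.68 for *Mael*, -0.35 to 0.031 for *Mov10l1* and -1.33 to -0.965 for *Stk31*, and day 2 minus day 0 was -0.11 to 0.030 for *Mov10l1*. The day 4 minus day 0 difference of *Dazl* passed with common-sum scaling (-1.31, adjusted p = 0.048), a minimum of 1 FPKM (-1.30, adjusted p = 0.045) and pseudocounts of 0.1 (-1.54, adjusted p = 0.048) and 0.01 (-1.57, adjusted p = 0.049), and its day 4 minus day 2 difference missed without the intensity trend (-1.36, adjusted p = 0.055). Common-sum scaling took 1KO+1CI minus 1KO of *Mov10l1* to 0.00032. With either smaller pseudocount, 1 gene, *Stk31*, was past a difference of 1 at day 4 in 1KO minus WT and in 1KO+1CI minus 1KO, where 0 were past it with a pseudocount of 1. The number of genes called higher in 1KO than WT was 107 in all 9 libraries and 2 to 13 with a day omitted, and for 1KO+1CI against WT it was 271 and 2 to 33. The causes of these shifts were not tested. Among the named list genes, *Piwil4* lost its call in 1KO+1CI against WT with a minimum of 1 FPKM (adjusted p = 0.080) and *Rnf17* without the intensity trend (adjusted p = 0.051), and with a day omitted 25 of 33 calls of 11 named genes in that comparison did not pass. All-gene medians moved by less than 0.1 under either scaling. Counts of 94 to 566 reads for *Mael*, *Mov10l1* and *Stk31* limit single-library ratios, and the spread between cultures was not measured.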
